A study of Nannochloropsis oceanica with 18 samples.

Results

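Transcripts of Nannochloropsis oceanica IMET1, a marine oleaginous microalga, were compared after 24 h at very low CO2 (VLC, 0.01% CO2) and 24 h at high CO2 (HC, 5% CO2). The comparison holds 4 libraries, replicates 1 and 2 of VLC and replicates 1 and 2 of HC. Its genes are those with a mean of at least 10 FPKM (fragments counted per kilobase of transcript and scaled to the mapped fragments of the library) in either group, 8220 of the 9756 genes in the deposited tables. Of these, 7315 reached 10 FPKM in both groups, 560 in VLC only and 345 in HC only. At the edge, g5075 (VLC 9.97, HC 9.57) lay just outside and g5596 (VLC 10.001, HC 9.79) just inside.

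The whole series has 18 libraries in 9 groups, of which 2 were taken at 0 h and the others at 3, 6, 12 or 24 h of VLC or HC. All cells came from cultures at 5% CO2, were washed and re-inoculated in fresh nitrate-containing medium, had 1 h at 5% CO2, and then either were moved to 0.01% CO2 or stayed at 5%, at 25 °C and 80 µmol photons per m2 per s of continuous light. Both groups therefore carry the effects of the wash and the fresh medium. Of 3 cultures per condition 2 were sequenced, and libraries of different times may come from the same culture, so p-values rest on the spread between 2 libraries per group. Batch, position or harvest order was not given in the sources used here.

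Aquatic algae face slow diffusion of CO2 in water, and Rubisco, the enzyme that fixes CO2, also reacts with oxygen. A carbon-concentrating mechanism (CCM) offsets this with bicarbonate transporters and with carbonic anhydrases, which interconvert CO2 and bicarbonate, so that CO2 is raised around Rubisco. A C4-like route instead stores carbon in 4-carbon acids that are later decarboxylated, and photorespiration recycles the product of the reaction with oxygen through glycolate, glycine and serine.

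At 24 h, 922 of the 8220 genes were higher and 489 lower in VLC than in HC, called at a limma adjusted p of at most 0.05 and a change of at least 2-fold. The shares called, against which the counts of members below are read, were 17.2% in either direction, 11.2% higher and 5.95% lower. A further 3893 genes passed the adjusted p with a smaller change. In 239 of the higher genes and 96 of the lower genes the change was at least 4-fold. In every called gene both VLC libraries stood on the same side of both HC libraries. With replicates this close, a change of 2-fold or more nearly ensures that, and the share over all genes tested was not counted. In 1 called gene the replicates of a group were 2-fold or more apart. Among genes at 10 FPKM or more in both groups, 650 were higher (8.89%) and 416 lower (5.69%), 14.6% of 7315. The balance of directions depends on scaling. The median gene was 0.10 higher in VLC (log2 of FPKM + 1). When each library was centred on its median gene, which moved all log2 values by -0.19, 682 genes were higher (8.3%) and 749 lower (9.11%). Quantile normalization gave 796 higher and 700 lower.

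**Figure D1:**
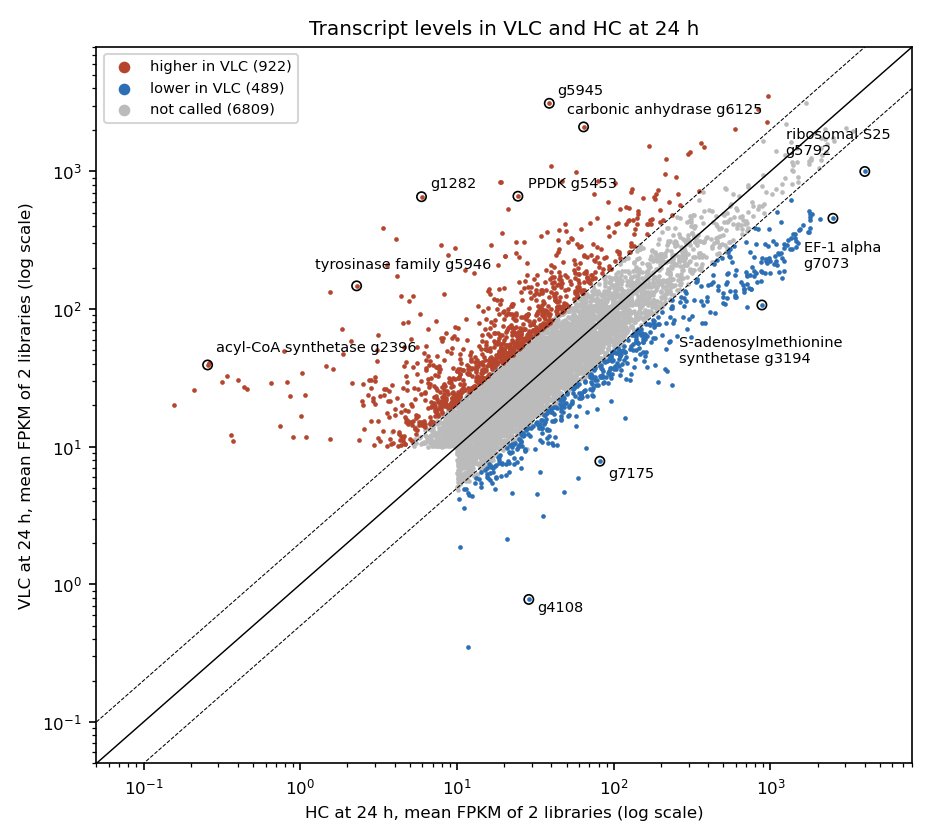
Mean FPKM in VLC (vertical axis, log scale) against HC (horizontal axis, log scale) for the 8220 genes at 24 h, 2 libraries each. Red points are the 922 genes called higher in VLC, blue points the 489 called lower and grey points the other 6809; the solid line marks equal levels and the dashed lines 2-fold. The carbonic anhydrase g6125 lies far above the line at 2102 FPKM in VLC, against 64.2 in HC, and elongation factor 1 alpha (g7073) far below it at 455.7 and 2503.

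The replicates lay close together, with a correlation across genes of 0.9951 in VLC and 0.9966 in HC. The summed FPKM was 563972 and 570906 in VLC and 607384 and 605741 in HC, and 36 and 37 genes in VLC and 49 and 47 in HC were listed at 0. FPKM are already scaled to each library's total, so a gene's level also reflects what the other genes take up. The 70 genes of cytosolic ribosomal proteins held 2.86% and 2.95% of the summed FPKM in VLC, against 11.5% and 11.6% in HC, and the part of this gap in other changes was not tested. Fewer cells and less RNA per cell cannot be told apart in such libraries. The 29 light harvesting and photosystem genes, the check on a photosynthetic alga, were all at 10 FPKM or more in either group and held 4.66% and 4.98% of the summed FPKM in VLC, against 6.06% and 6.03% in HC. The actin-related reference gene g3056 had 28.9 and 29.4 FPKM in VLC, against 34.5 and 32.7 in HC, a log2 change of -0.20 (adjusted p = 0.19).

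The carbonic anhydrase g6125, called α-CA5 in the study, was among the 8 most abundant transcripts of VLC. It had 2111 and 2092 FPKM in VLC, against 69.0 and 59.4 in HC, so the groups were widely apart. The log2 change was 5.02 (standard error 0.23, adjusted p = 3.5e-10 from limma). It lies on scaffold00214 at 208828 to 211164 of the IMET1 assembly, and among genes annotated with a function only g5946, g6268 and g8242 had a larger log2 change in this fit. The other carbonic anhydrases moved far less. The transcript of g2018 had 53.6 and 55.9 FPKM in VLC, against 34.7 and 35.0 in HC (log2 0.64, adjusted p = 8e-05), short of 2-fold. For g2209, g4812 and g1084 the log2 changes were -0.39, -0.33 and -0.33, each lower in VLC by less than 2-fold with an adjusted p of at most 0.023.

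Of the SLC4 bicarbonate transporters, which carry bicarbonate across membranes and which the tables label "boron transporter 1", the transcript of BCT1 (g19) rose. It had 100.4 and 103.3 FPKM in VLC, against 44.0 and 44.9 in HC, a log2 change of 1.18 (standard error 0.13, adjusted p = 3.4e-06). Centred libraries put it at 0.99, just under 2-fold. The second, BCT2 (g1855), had 37.3 and 36.1 FPKM in VLC, against 32.2 and 29.9 in HC, and its log2 change of 0.24 did not reach the size asked for. In all, 2 of the 6 genes of this biophysical CCM list were higher and none lower, with a median log2 ratio of mean FPKM of 0.45, against 0.10 over all genes tested.

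Among 5 candidate bicarbonate transporters that the study picked, partly on these samples, 4 were higher, with a median of 1.84. The SLC26 family gene g9142 had 143.3 and 139.7 FPKM in VLC, against 26.6 and 26.9 in HC (log2 2.36, standard error 0.09, adjusted p = 2.6e-11). Another SLC26 candidate, g6134, annotated as a mitochondrial carrier (MC) family transporter, had 27.96 and 29.9 FPKM in VLC, against 0.89 and 0.41 in HC. Its log2 change of 4.2 (adjusted p = 2.2e-10) was the largest among 169 tested ion and metabolite transporters. The ABC transporter g6756, a pump driven by ATP, had 217.5 and 216.2 FPKM in VLC, against 62.6 and 58.7 in HC (log2 1.82, adjusted p = 3.1e-10). The ABC transporter g6647 had a log2 change of 0.55 and was not called. For the remaining candidate, g9968, the tables name a chromosome condensation regulator-like protein, and its log2 change was 1.56 (adjusted p = 0.00015).

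Homologs of LCIA and LCI1, transporters of inorganic carbon in the green alga Chlamydomonas, went both ways. The neighbouring genes g544 and g545 on scaffold00009 moved in opposite directions. The first, at 603393 to 605657 and annotated only with a domain of unknown function, had 87.8 and 87.6 FPKM in VLC, against 37.5 and 34.6 in HC (log2 1.26, adjusted p = 5.3e-08). The second, at 606213 to 608463 and annotated as the nitrite transporter NAR1, had 67.2 and 66.8 FPKM in VLC, against 156.6 and 145.2 in HC (log2 -1.16, adjusted p = 2e-07). The gene g6826 did not pass (log2 0.36, adjusted p = 0.051), and g532 stayed under 3 FPKM in all 4 libraries. A sodium/hydrogen exchanger (g2617), of a family that trades sodium ions for protons, was the higher one of 17 organelle transporters. It had 104.7 and 107.1 FPKM in VLC, against 13.6 and 13.8 in HC (log2 2.86, adjusted p = 1.1e-11). The lower one of the 17 was a triosephosphate/phosphate translocator (g6303), which exports sugar phosphates from the plastid, at 6.12 and 6.93 FPKM in VLC, against 35.1 and 32.7 in HC (log2 -2.21, adjusted p = 5.1e-08). More abundant genes of this kind were not called. The plastidic translocator g1018 averaged 749.0 FPKM in VLC, against 519.3 in HC (log2 0.53). The triose or hexose phosphate translocator g521 averaged 143.5 in VLC, against 173.7 in HC (log2 -0.27).

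**Figure D2:**
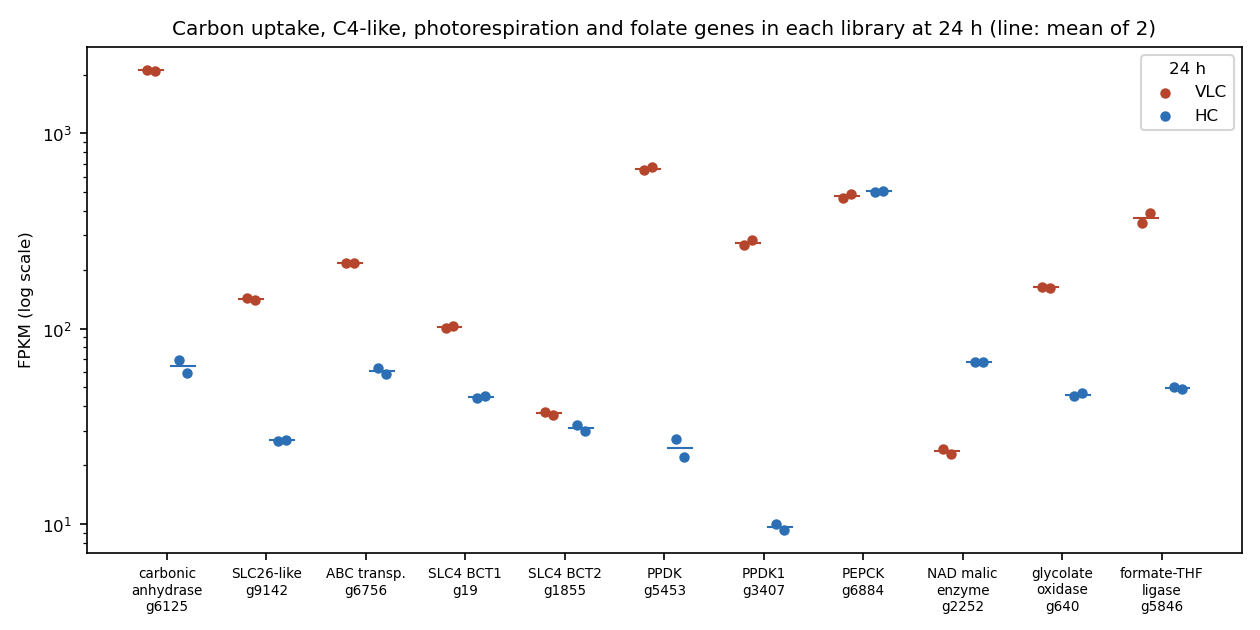
FPKM (log scale) of 11 genes of carbon uptake, the C4-like route, photorespiration and the folate cycle in each library at 24 h; red points are the 2 VLC libraries, blue points the 2 HC libraries and the short lines their means. The groups stand apart most for α-CA5 (g6125) and the dikinases g5453 and g3407, lie close for BCT2 (g1855) and PEPCK (g6884), and are turned round for the NAD malic enzyme g2252 (24.2 and 22.7 in VLC, 67.0 and 67.2 in HC).

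Among 10 C4-like genes 3 were higher and 1 lower, and all 3 are annotated as pyruvate, phosphate dikinase (PPDK), which turns pyruvate into phosphoenolpyruvate. The PPDK transcript g5453 had 646.0 and 672.6 FPKM in VLC, against 27.1 and 21.9 in HC (log2 4.70, standard error 0.22, adjusted p = 4.2e-10). Its neighbour g5454, with the same annotation, lies on scaffold00182 at 276584 to 278838 after g5453 at 273637 to 275628, and had 245.4 and 251.8 FPKM in VLC, against 9.399 and 8.16 in HC (log2 4.68). Whether these are parts of a single gene was not tested. PPDK1 (g3407) had 267.0 and 283.3 FPKM in VLC, against 9.99 and 9.32 in HC (log2 4.70, standard error 0.14, adjusted p = 5e-12). Reads shared by near-identical copies were left out by the authors, which can lower any of the 3.

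The enzymes around this step had smaller or opposite changes. Phosphoenolpyruvate carboxylase (g5140), which adds bicarbonate to phosphoenolpyruvate, had 95.9 and 95.9 FPKM in VLC, against 81.9 and 81.6 in HC (log2 0.23). Phosphoenolpyruvate carboxykinase (g6884) had a log2 change of -0.08 (adjusted p = 0.62). Both malate dehydrogenases, g7798 and g9301, stayed within 0.41 of 0 on the log2 scale. An NAD dependent malic enzyme (g2252), which releases CO2 from malate, was lower in VLC (log2 -1.48, standard error 0.08, adjusted p = 2.7e-09). The second NAD dependent gene (g3463) had -0.78 and the NADP-dependent gene (g8325) 0.50. The median of the list was 0.32.

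Photorespiration genes had 3 of 11 members higher, none lower and a median log2 ratio of 0.58. Glycolate oxidase (g640), which turns glycolate into glyoxylate, had 163.3 and 161.6 FPKM in VLC, against 44.9 and 46.7 in HC (log2 1.80, standard error 0.16, adjusted p = 2.4e-07). Glutamate:glyoxylate aminotransferase (g3637), which makes glycine, had 176.5 and 185.2 FPKM in VLC, against 61.0 and 57.3 in HC (log2 1.6, adjusted p = 7.9e-07). A putative alanine-glyoxylate aminotransferase (g6487) was higher too, at a lower level (19.8 and 20.1 FPKM in VLC, against 8.003 and 6.24 in HC; log2 1.37). Phosphoglycolate phosphatase (g10166), the first enzyme of the route, had a log2 change of 0.95 and fell short of 2-fold. Those of glycine decarboxylase and serine hydroxymethyltransferase, which turn glycine into serine with release of CO2, were between -0.08 and 0.67, with g260 the only listed gene below 0. The gene g9801, given as a member by the study, is annotated as a methyltransferase of another kind (log2 0.12).

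One-carbon metabolism on tetrahydrofolate (THF) split in 2 directions, with 2 of 5 genes higher and 2 lower. Formate-THF ligase (g5846), which loads formate onto the carrier, had 347.8 and 391.5 FPKM in VLC, against 50.3 and 49.2 in HC (log2 2.87, standard error 0.18, adjusted p = 7.3e-09). The dehydrogenase/cyclohydrolase (g8540), which acts next to it, had 247.0 and 253.9 FPKM in VLC, against 111.5 and 103.3 in HC (log2 1.21, adjusted p = 7.2e-06). In contrast, both methylene-THF reductases of the list, which commit the carbon to methionine synthesis, were lower, while another gene with that annotation, g1951, had -0.51 and was not called. The transcript of g3586 had 37.1 and 40.0 FPKM in VLC, against 104.3 and 98.7 in HC (log2 -1.37, adjusted p = 2e-08). That of g6732 had a log2 change of -1.01, and without replicate 1 of VLC it was -0.93 and no longer called.

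The methionine and S-adenosylmethionine list, which holds these reductases too, had 6 of 15 genes lower and 1 higher, with a median of -0.82. The deepest falls in it were those of S-adenosylmethionine synthetase (g3194), which makes the methyl donor, with 104.0 and 109.8 FPKM in VLC, against 878.2 and 884.6 in HC, and of adenosylhomocysteinase (g5816), which clears its product, with 168.0 and 167.8 FPKM in VLC, against 1189 and 1166 in HC. Cobalamin-independent methionine synthase (g4296), which uses the methyl group from the reductases, averaged 46.4 FPKM in VLC, against 109.6 in HC (log2 -1.22). A spermidine/spermine synthase (g10160), of the polyamine branch, averaged 16.7 FPKM in VLC, against 57.3 in HC (log2 -1.72). Both genes were chosen once their values had been seen. Outside the list fell g7175 and g7188, which share the annotation of an adenosine kinase-like protein and lie on scaffold00252 at 441619 to 443971 and 473059 to 475409. Adenosine kinase removes the adenosine left over when S-adenosylhomocysteine is cleaved. The first had 7.62 and 8.05 FPKM in VLC, against 77.3 and 85.7 in HC (log2 -3.22, standard error 0.09, adjusted p = 4.2e-12). The second had 3.19 and 3.12 FPKM in VLC, against 35.5 and 35.1 in HC (log2 -3.13). Any reads that fit both genes were left out by the authors, which can lower either. Cystathionine gamma-synthase (g6471) was the higher member of the list, at 17.6 and 21.3 FPKM in VLC, against 8.03 and 7.60 in HC (log2 1.21).

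Sulfate assimilation, which feeds cysteine and methionine, had 2 of 17 genes higher and 2 lower. Phosphoadenylyl-sulfate reductase (g5606) had 142.7 and 154.6 FPKM in VLC, against 394.2 and 407.3 in HC (log2 -1.43, adjusted p = 8.9e-10). Sulfite reductase (g2586) followed with -1.02, or -0.72 after quantile normalization. The sulfate transporter g5974 was higher, at 10.7 and 11.4 FPKM in VLC, against 2.29 and 2.48 in HC (log2 1.84, adjusted p = 1.6e-06). The sign of the median of this list changed with the scaling.

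Genes for nitrate uptake and nitrate reduction were among the lower ones. The high affinity nitrate transporter (g7989) had 463.3 and 514.8 FPKM in VLC, against 1766 and 1793 in HC, on scaffold00271 at 268111 to 270893 (log2 -1.86, standard error 0.14, adjusted p = 4.7e-08). Nitrate reductase 1 (g7988), the next gene on the scaffold, averaged 179.1 FPKM in VLC, against 524.5 in HC (log2 -1.55), and the assimilatory nitrate reductase g2405 had -1.52. Ferredoxin nitrite reductase (g3438), the step after them, had -0.52 and was not called. These reductases were chosen once their values had been seen. The glutamine synthetase gene g6874, which fixes ammonium, had 1038 and 1087 FPKM in VLC, against 2046 and 2048 in HC, and its log2 change of -0.95 fell just short. Of 22 nitrogen assimilation genes 5 were lower and 2 higher, and neither of the higher genes stayed called in centred libraries, where 6 were lower, or after quantile normalization. Of the higher pair, the NAD-dependent glutamate dehydrogenase (g1847), at log2 1.01, was at 0.98 without replicate 2 of HC and at 0.83 in centred libraries.

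The ornithine urea cycle, which handles nitrogen as carbamoyl phosphate and arginine, had 2 of 7 tested genes lower and none higher, with a median of -0.58. Carbamoyl-phosphate synthase (g1666), which consumes bicarbonate and ammonia, had 49.0 and 51.2 FPKM in VLC, against 138.6 and 138.6 in HC (log2 -1.45, standard error 0.08, adjusted p = 1.3e-09). Argininosuccinate synthetase (g9579) had 153.3 and 159.4 FPKM in VLC, against 339.2 and 335.0 in HC (log2 -1.10). Ornithine decarboxylase-like g9591, at -0.96, passed only when the libraries were centred (-1.15) or quantile normalized (-1.12). Arginase (g2649), which frees urea, had 0.55.

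Of 24 Calvin cycle genes tested 2 were higher and 1 lower, where 11.2% and 5.95% of all genes tested were. Their median was 0.03. In centred libraries 1 was higher and 3 lower, and the median was negative. The abundant fructose-1,6-bisphosphate aldolase g5679 had 1953 and 2136 FPKM in VLC, against 2244 and 2217 in HC (log2 -0.13, adjusted p = 0.28). An NADP-dependent glyceraldehyde-3-phosphate dehydrogenase (g1650) was far higher, at 837.8 and 816.9 FPKM in VLC, against 105.5 and 97.2 in HC (log2 3.02, standard error 0.13, adjusted p = 1e-10). By contrast the most abundant gene of this enzyme, g10357, had 1515 and 1658 FPKM in VLC, against 2295 and 2306 in HC (log2 -0.54). A ribulose-phosphate 3-epimerase (g5017), which makes a precursor of the CO2 acceptor, was lower at 10.02 and 9.196 FPKM in VLC, against 29.6 and 33.2 in HC (log2 -1.61).

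None of 29 light harvesting and photosystem genes was called in either direction, and their median was -0.52. In centred libraries 2 were lower, and after quantile normalization 1, the light harvesting gene g903, was higher (1.55). This gene, of a family that binds chlorophyll, had 3067 and 3220 FPKM in VLC, against 1679 and 1669 in HC (log2 0.91). For g5628, g240 and g9733 the log2 changes were -0.61, -0.52 and -0.72. Pigment genes had a median of 0.07, and the sole called member was a violaxanthin de-epoxidase-related gene (g76; log2 1.09), a kind of enzyme of the photoprotective xanthophyll cycle, which was at 0.91 in centred libraries.

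Among mitochondrial genes, both annotated alternative oxidases were higher. These oxidases pass electrons straight to oxygen and bypass the last proton pumps. The transcript of g8794 had 68.5 and 66.0 FPKM in VLC, against 8.25 and 8.78 in HC (log2 2.84, standard error 0.10, adjusted p = 1.5e-11), and that of g363, chosen once its value had been seen, averaged 226.5 FPKM in VLC, against 74.8 in HC (log2 1.59). The respiratory chain list had 3 of 42 genes higher and 1 lower, with a median of -0.01. Cytochrome c (g4013) was lower at -1.02, a call lost without replicate 1 of VLC (-0.97). In the TCA cycle the citrate synthase g7378 was the only gene of 15 to be called, at 26.1 and 28.6 FPKM in VLC, against 9.08 and 9.72 in HC (log2 1.45).

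Cytosolic ribosomal proteins had 65 of 70 genes lower and 1 higher, with a median of -2.14, and ribosomal protein S12 (g3537) fell most. It had 185.4 and 194.1 FPKM in VLC, against 1236 and 1209 in HC (log2 -2.68, standard error 0.08, adjusted p = 5.1e-12). The most abundant, S25 (g5792), had 991.3 and 1004 FPKM in VLC, against 4009 and 3987 in HC. Translation factors had 21 of 61 lower and 1 higher, with a median of -0.65. Elongation factor 1 alpha (g7073), which brings aminoacyl-tRNA to the ribosome, had 442.4 and 468.9 FPKM in VLC, against 2534 and 2472 in HC (log2 -2.46, standard error 0.06, adjusted p = 1.3e-12). Initiation factor 5A (g1332) had 221.7 and 225.8 FPKM in VLC, against 1038 and 1121 in HC (log2 -2.26). A SelB-type elongation factor (g436), of selenocysteine insertion, was the higher member, at 123.9 and 119.2 FPKM in VLC, against 42.5 and 42.2 in HC (log2 1.5).

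Ribosome biogenesis genes had 2 of 43 lower and a median of -0.21, and RNA polymerases 1 of 23 lower and a median of -0.08. The RNA helicase g2720, of the DEAD box family and outside that list, was lower at 9.48 and 10.04 FPKM in VLC, against 68.6 and 65.2 in HC (log2 -2.66). Aminoacyl-tRNA synthetases, which charge tRNAs, had 9 of 46 lower and 1 higher, with a median of -0.60. Leucyl-tRNA synthetase (g7426) had 35.2 and 38.9 FPKM in VLC, against 91.9 and 98.4 in HC (log2 -1.34). Alanyl-tRNA synthetase g7069 was the higher member, with 107.4 and 111.4 FPKM in VLC, against 21.6 and 23.3 in HC (log2 2.24, adjusted p = 4.6e-10).

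**Figure D3:**
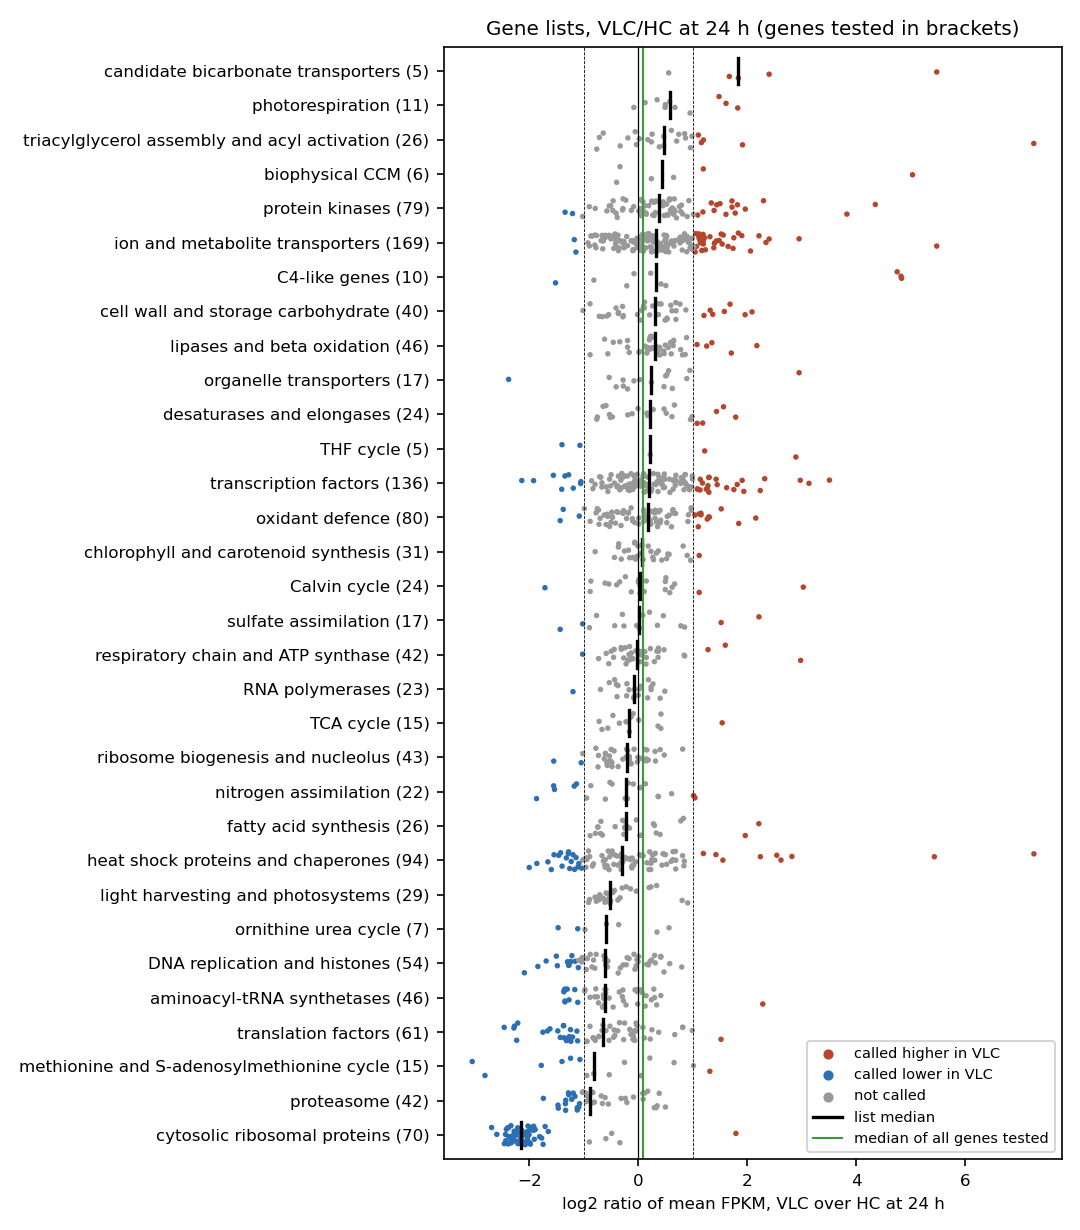
Log2 ratio of mean FPKM, VLC over HC at 24 h (horizontal axis), for each tested gene of the lists with 5 or more tested genes, sorted by list median; red and blue points are genes called higher and lower in VLC, grey points those not called, black bars list medians, dashed lines a 2-fold change and the green line the median of all genes tested (0.10). The ribosomal proteins form a tight cloud about -2.14, while the chaperones reach from -2.0 for the HSP70 gene g5260 to 7.26 for the HSP70-like gene g8242.

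Of 94 chaperones, 19 were lower and 9 higher, and in centred libraries 26 were lower and 8 higher. All 8 tested subunits of the T-complex chaperonin, the ring that folds actin and tubulin, were lower, with log2 changes from -1.72 to -1.24; this group was chosen once its values had been seen. HSP70 (g5260) had 220.5 and 217.5 FPKM in VLC, against 872.6 and 876.7 in HC (log2 -1.99, adjusted p = 7.8e-11). HSP90 (g10165) had 437.2 and 413.4 FPKM in VLC, against 1171 and 1166 in HC (log2 -1.46), and after quantile normalization its change was -0.85, short of 2-fold. A further HSP70-like transcript, g8242, went the other way and was nearly absent in HC, at 38.5 and 42.3 FPKM in VLC, against 0.37 and 0.15 in HC (log2 5.04, adjusted p = 1.4e-09).

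The small heat shock proteins, which hold unfolded proteins in solution, were higher in 3 of 3 cases with a median of 2.62. The Hsp20 gene g10 had 406.2 and 417.2 FPKM in VLC, against 144.3 and 135.9 in HC (log2 1.55), and HSP16 (g1165) averaged 329.9 FPKM in VLC, against 53.7 in HC (log2 2.6). The HSP101 gene g8558, of a kind that pulls proteins out of aggregates, averaged 141.0 FPKM in VLC, against 19.95 in HC (log2 2.76). The genes g1165 and g8558 were chosen once their values had been seen. For the proteasome, 15 of 42 genes were lower and none higher, with a median of -0.88, and 22 were lower in centred libraries. The subunit alpha type 2 (g3201) had the largest fall, at 32.4 and 33.6 FPKM in VLC, against 109.9 and 110.1 in HC (log2 -1.71, adjusted p = 4.3e-10).

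Of 54 DNA replication and histone genes 13 were lower and none higher, with a median of -0.60. In centred libraries the count was 21. The small chain of ribonucleoside-diphosphate reductase (g1069), which makes DNA precursors, had 10.5 and 10.1 FPKM in VLC, against 44.6 and 42.8 in HC (log2 -1.99, standard error 0.06, adjusted p = 5.9e-12). The sliding clamp PCNA-like gene g8523, chosen once its values had been seen, averaged 84.6 FPKM in VLC, against 302.9 in HC (log2 -1.83). The abundant histone H2A genes g7083 and g10111 were not called as measured, with log2 changes of -0.84 and 0.31, and g7083 was lower in centred libraries (-1.03).

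Of 80 oxidant defence genes 11 were higher and 3 lower, near the shares of 11.2% and 5.95% over all genes tested. A superoxide dismutase-like gene (g7580), of enzymes that remove superoxide, had 78.2 and 74.4 FPKM in VLC, against 18.5 and 15.7 in HC (log2 2.10, adjusted p = 1.4e-07). Catalase (g4037), chosen once its values had been seen, averaged 259.1 FPKM in VLC, against 125.9 in HC (log2 1.04), short of 2-fold in centred libraries. The most abundant genes of the list, ascorbate peroxidase (g4715; log2 0.10) and thioredoxin f (g9489; -0.31), were not called. In centred libraries 6 genes were higher and 5 lower, where 8.3% of all genes tested were higher and 9.11% lower. The median of 0.17 then fell just below 0.

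Of 24 desaturases and elongases 5 were higher and none lower, with a median of 0.22, and in centred libraries 3 were higher. Stearoyl-CoA desaturase (g2635), which puts the first double bond into a fatty acid, had 375.2 and 448.4 FPKM in VLC, against 115.8 and 122.5 in HC (log2 1.78, standard error 0.09, adjusted p = 6e-10). The delta-5-desaturase g8906, which acts on polyunsaturated fatty acids, averaged 109.6 FPKM in VLC, against 48.2 in HC (log2 1.16, short of 2-fold in centred libraries), and the elongase g5643 averaged 166.7 in VLC, against 56.3 in HC (log2 1.54). The abundant fatty acid desaturase g7956 had -0.76.

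Triacylglycerol assembly and acyl activation had 5 of 26 genes higher, none lower and a median of 0.47. In centred libraries 2 were higher. The acyl activation gene g2396, of a long chain acyl-CoA synthetase, had 39.9 and 38.5 FPKM in VLC, against 0.38 and 0.14 in HC. Phospholipid:diacylglycerol acyltransferase (g2932) and a type 2 diacylglycerol acyltransferase (g7358), which complete the storage lipid, averaged 68.6 and 49.0 FPKM in VLC, against 31.9 and 21.9 in HC (log2 1.08 and 1.13), and both were short of 2-fold in centred libraries. The betaine lipid synthesis gene g5112 had -0.75. Acetyl-CoA carboxylase (g4840), which starts fatty acid synthesis, had 496.9 and 579.7 FPKM in VLC, against 605.2 and 595.7 in HC (log2 -0.16, adjusted p = 0.19). Of 26 fatty acid synthesis genes 2 were higher, among them a beta-ketoacyl synthase (g37) with 50.7 and 51.1 FPKM in VLC, against 11.4 and 10.6 in HC (log2 2.12). Lipases and beta oxidation had 5 of 46 higher. Neither of these 2 counts exceeds the share of 11.2% higher over all genes tested. The largest change among lipases and beta oxidation was that of a lipase domain protein (g3858; log2 2.08). The lipid genes g8906, g5643, g2932 and g7358 were chosen once their values had been seen.

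Cell wall and storage carbohydrate genes had 7 of 40 higher and none lower, and in centred libraries 7 higher and 1 lower. They include 5 cellulases or endoglucanases, enzymes that cut cellulose, and a cellulose synthase subunit (g5048), which averaged 159.0 FPKM in VLC, against 68.8 in HC (log2 1.2). The endo-beta-1,4-glucanase g3136 averaged 182.5 FPKM in VLC, against 56.7 in HC (log2 1.67), and like g5048 it was chosen once its values had been seen. Other genes of these kinds were not called, among them cellulase 2 (g323; log2 -0.91) and the cellulose synthases g6926 (0.36) and g8538 (-0.28). The member with the largest change was a UDP-glucose:sterol glucosyltransferase (g9985), at 67.4 and 66.5 FPKM in VLC, against 17.6 and 16.8 in HC (log2 1.90).

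Ion and metabolite transporters had 34 of 169 higher and 2 lower, with a median of 0.34, and in centred libraries 19 were higher and 6 lower. Of 136 transcription factors 23 were higher and 9 lower, and of 79 protein kinases 15 were higher and 2 lower. Over all genes tested 11.2% were higher and 5.95% lower, so the lower counts were near or below that share. In centred libraries these counts were 17 and 10 for transcription factors and 13 and 4 for kinases. There 8.3% of all genes tested were higher and 9.11% lower. A putative heat shock transcription factor (g7071), of the family that switches on heat shock genes, had 213.9 and 202.9 FPKM in VLC, against 18.4 and 18.2 in HC (log2 3.44, standard error 0.12, adjusted p = 2e-11). Another, g7530, averaged 259.5 FPKM in VLC, against 537.3 in HC (log2 -1.05). The MYB factor g1645 had 187.2 and 184.0 FPKM in VLC, against 711.0 and 692.1 in HC (log2 -1.91), while the MYB-related g1493 averaged 127.8 in VLC, against 16.3 in HC (log2 2.90). The lowest member was a BTF3-like protein (g9737; log2 -2.12), known from other eukaryotes as a ribosome-associated subunit. The kinases g7153 (65.5 and 63.1 FPKM in VLC, 2.72 and 3.58 in HC; log2 3.98) and g2471 (on average 183.7 FPKM in VLC, against 12.9 in HC; log2 3.75) rose most among kinases. The genes g7530, g1493 and g2471 were chosen once their values had been seen.

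The largest rise with a functional annotation on the log2(FPKM + 1) scale was that of a tyrosinase family member (g5946), a copper enzyme family that oxidises phenols. It had 152.9 and 141.4 FPKM in VLC, against 2.74 and 1.84 in HC (log2 5.51, standard error 0.17, adjusted p = 4.9e-12). By the ratio of mean FPKM it rose 64.3-fold, less than g8242 and g2396 at 153-fold each, which were below 1 FPKM in HC. The unannotated gene next to it on scaffold00185, g5945, reached 3303 and 2936 FPKM in VLC, against 48.0 and 29.5 in HC (log2 6.33), among the 8 most abundant transcripts of VLC. The other top rises include a putative alpha-aminoadipic semialdehyde synthase (g7155), an enzyme of lysine breakdown, with 27.6 and 25.1 FPKM in VLC, against 0.54 and 0.37 in HC (log2 4.23). They also include a ras-related GTP-binding protein (g5904), with 37.5 and 36.1 FPKM in VLC, against 2.10 and 1.14 in HC (log2 3.88). The rise of the sterol isomerase-like emopamil binding protein-like gene g6938 was of similar size (log2 4.12).

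The largest fall with a functional annotation was that of a PA-phosphatase-like phosphoesterase (g2171), at 0.45 and 0.24 FPKM in VLC, against 10.4 and 13.2 in HC (log2 -3.24, adjusted p = 4.8e-09). A low molecular weight protein-tyrosine phosphatase (g6079), which removes phosphate from tyrosine residues, had 7.08 and 4.77 FPKM in VLC, against 56.9 and 61.8 in HC (log2 -3.14). A GTP-binding protein (g6642) had 15.6 and 16.7 FPKM in VLC, against 117.0 and 118.9 in HC (log2 -2.80).

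As measured, genes without a functional annotation were more often higher than lower. The split by annotation was not counted in centred libraries, where the balance over all genes turned round. It includes genes that reached 10 FPKM in VLC only or in HC only, 560 and 345 of all genes tested. Of 3762, 482 were higher (12.8%) and 160 lower (4.25%), and 152 were higher and 16 lower by 4-fold or more. Of the 4458 with an annotation, 440 were higher (9.87%) and 329 lower (7.38%), and 87 and 80 by 4-fold or more. The share called in either direction was 17.1% without and 17.2% with an annotation. The largest rises on the log2(FPKM + 1) scale were g1282 (632.8 and 674.9 FPKM in VLC, 7.89 and 3.98 in HC; log2 6.62) and g4471 (393.1 and 382.7 in VLC, 4.21 and 2.54 in HC; log2 6.5). The largest fall was g4108, at 0.61 and 0.94 FPKM in VLC, against 28.6 and 28.9 in HC (log2 -4.07, adjusted p = 1.8e-10).

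The most abundant transcripts differed between the groups. The highest in VLC was g5406, a hypothetical protein, at 3516 and 3494 FPKM in VLC, against 991.2 and 929.6 in HC (log2 1.87). Each set of 8 most abundant genes was taken on the 24 h values that the calls use again. Calls toward that group are therefore partly built in, and the counts are only a description. Of the 8 most abundant in VLC, 5 were called higher there, g5406, g5945, g6125, g855 and g4945. Of the 8 most abundant in HC, 2 were called lower in VLC, the ribosomal S25 gene g5792 and elongation factor 1 alpha (g7073). The other 6 include the violaxanthin/chlorophyll a binding protein g2383 (1941 and 2208 FPKM in VLC, 3028 and 3060 in HC; log2 -0.56), which is among the 8 of both groups.

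The 0 h libraries show in which group the level had moved, as a description. The called genes were chosen on the 24 h values used here, so a move in the called direction is partly built in. Shares over all genes tested were not counted. Of the 919 higher genes with a 0 h level above 0, 346 stood at least 2-fold above 0 h in VLC while HC was within 2-fold of it. For 177 HC was at least 2-fold below 0 h while VLC was within 2-fold, for 43 both held, and for 205 both groups were at least 2-fold above 0 h. Of the 489 lower genes, 312 had moved in VLC only, 39 in HC only and 3 in both, and 30 were at least 2-fold below 0 h in both groups. Ribosomal proteins had a median log2 ratio to 0 h of -1.94 in VLC and 0.18 in HC. The α-CA5 gene g6125 had 323.5 and 329.9 FPKM at 0 h, between its levels at 24 h in VLC and in HC. Glycolate oxidase (g640) had 192.1 and 200.3 FPKM at 0 h, above its level in both groups at 24 h. The nitrate transporter g7989 (4689 and 5239 FPKM at 0 h) was below 0 h in both groups.

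**Figure D4:**
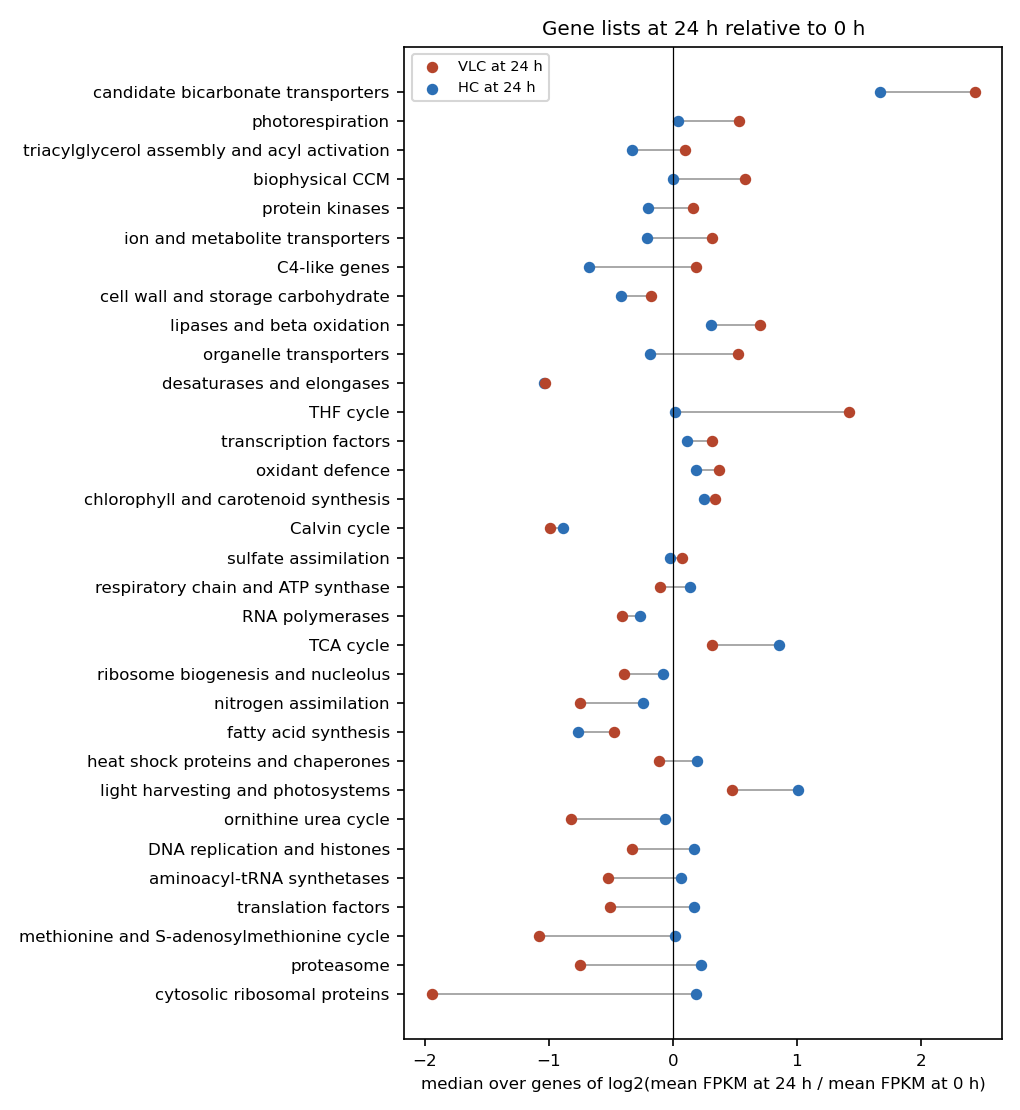
Median over genes of the log2 ratio of mean FPKM at 24 h to that at 0 h (horizontal axis) for VLC (red) and HC (blue), for the same lists; both share the 0 h libraries. The ribosomal proteins lie at -1.94 in VLC and 0.18 in HC, the candidate bicarbonate transporters at 2.43 and 1.67, and desaturases and elongases at -1.03 and -1.04.

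The change at 24 h was set against that at 12 h and 6 h by interaction contrasts in the same limma model, both of which use the 24 h libraries. Between 24 h and 12 h 2861 of 9109 genes differed, 559 with a larger value at 24 h (6.14%) and 2302 with a smaller one (25.3%), 31.4% of those tested. The median gene was 0.59 higher in VLC at 12 h, and with each library centred on its median gene 999 were larger (11%) and 641 smaller (7.04%), 18.0%. For the PPDK gene g5453 the mean was 669.0 FPKM in VLC, against 117.9 in HC at 12 h. At 24 h it was 659.3 in VLC, against 24.46 in HC, so by FPKM mainly the level in HC differed between the times. The centred difference between the times was 2.66 (adjusted p = 1.1e-05 by the interaction contrast in limma). Calls of other genes depended on the centring. For elongation factor 1 alpha (g7073) the difference was -1.06, and -0.61 in centred libraries, where it was not called. For formate-THF ligase (g5846) it was -1.16, and -0.71 in centred libraries, again not called.

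Between 24 h and 6 h 1233 of 8704 genes differed, 14.2%, with 800 larger (9.19%) and 433 smaller (4.97%). In centred libraries the balance turned round, with 580 larger and 689 smaller. Of the 922 genes higher at 24 h, 675 had a larger value at 24 h than at 6 h by this test, and 340 of the 489 lower genes a smaller one. Both sets were chosen on the 24 h values that the test uses again. A majority in the chosen direction is therefore largely built in, and the counts are only a description. For α-CA5 (g6125) the difference between 24 h and 6 h was 0.84 with an adjusted p of 0.052, so a difference was not shown there. PPDK1 (g3407) differed by 3.01 (adjusted p = 4.7e-08), with means at 6 h of 17.3 FPKM in VLC, against 4.62 in HC. The adenosine kinase-like gene g7175 had 76.1 in VLC and 75.5 in HC at 6 h, and differed by -3.23.

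**Figure D5:**
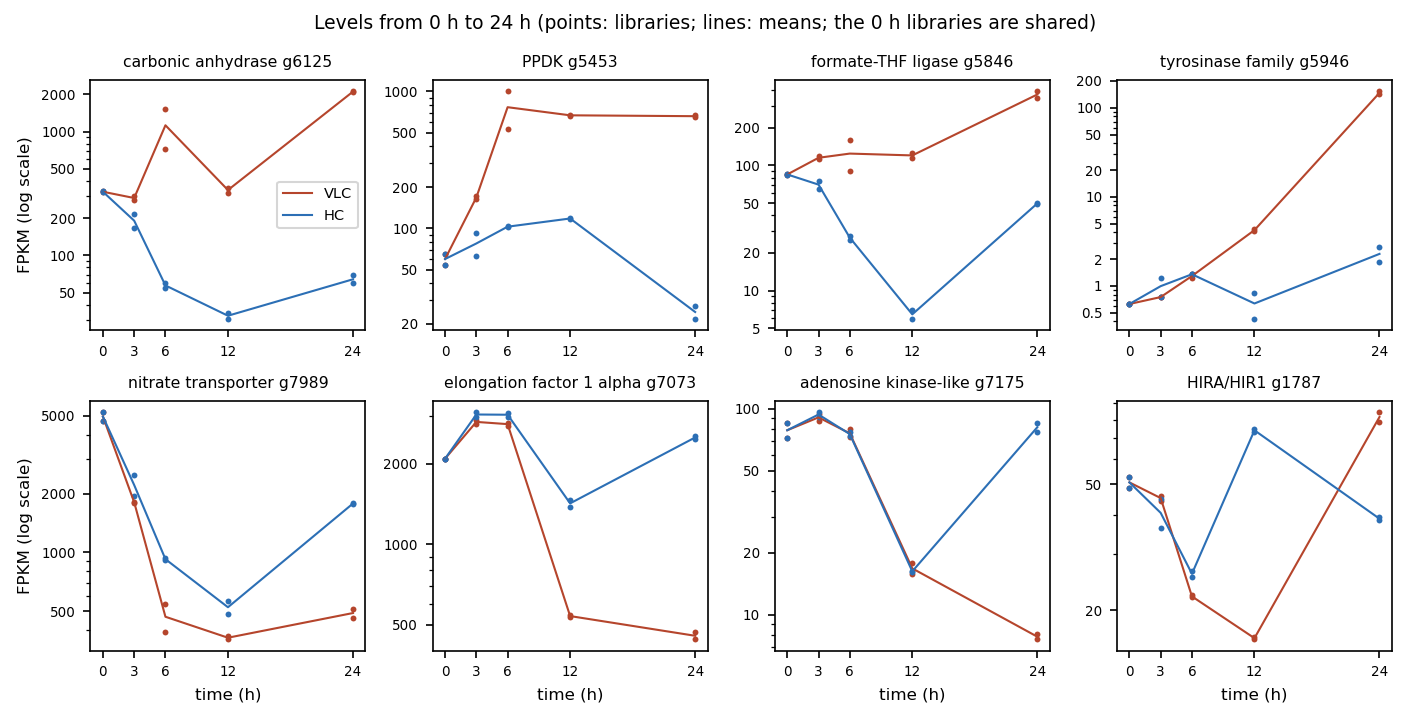
FPKM (log scale, vertical axis) of 8 genes against time from 0 h to 24 h in VLC (red) and HC (blue); points are libraries and lines join the means, and both lines start from the shared 0 h libraries. For α-CA5 (g6125) VLC lies above HC from 3 h on, the tyrosinase family gene g5946 parts late, with 147.2 FPKM in VLC, against 2.29 in HC at 24 h, and HIRA/HIR1 (g1787) is lower in VLC at 12 h and higher at 24 h.

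Called genes often lay beside each other on the scaffolds. Of 764 higher genes whose next gene was tested, 201 (26.3%) were followed by another higher gene, where 11.2% of all next genes were higher, and of 411 lower genes 68 (16.5%) by another lower one, against 5.85%. The longest runs had 5 neighbouring higher genes, for example, chosen once seen, from the sodium/hydrogen exchanger g2617 to a CO-like transcription factor (g2621) on scaffold00080, 405318 to 426131. The libraries do not keep strand, so reads from overlapping or close genes on opposite strands cannot be told apart. For pairs closer than the median gap of 120 bases 29.5% of higher genes were followed by a higher one, where 10.2% of all next genes were higher. For the other pairs it was 23.5%, against 12.3%. Of lower genes, 16.9% were followed by a lower one in the closer pairs, against 5.76% of all next genes. In the other pairs it was 16.2%, against 5.94%.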

How the data were processed

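Poly(A) RNA of N. oceanica IMET1 was sequenced by the authors as paired reads in libraries that do not keep strand. The submitters' processing notes name TopHat2 2.0.4 and Cufflinks 2.0.2, and the deposited values are FPKM per gene made by the authors from uniquely aligned fragments. The deposited tables hold no counts, whole counts could not be recovered from the values, and the study's read totals were not used here, so no count test was run. FPKM were transformed as log2(FPKM + 1), which understates changes of low genes, and fitted in limma 3.58.1 (R 4.3.3) with all 18 libraries in 9 groups. Adjusted p-values are Benjamini-Hochberg over genes with a mean of at least 10 FPKM in either group. A gene was called at an adjusted p of at most 0.05 and an absolute log2 change of at least 1. List medians are of log2 ratios of mean FPKM without a pseudocount. On simulated data 97 of 100 genes changed 2.5-fold and 99 of 100 changed 4-fold were recovered, with 1 of 7746 unchanged genes called. The simulation drew independent noise, put changes in both directions into better expressed genes and had no shift of scale. It checks the procedure and does not measure missed or false calls in these data. The rule for named genes took 197 genes: all of the study's carbon lists, the 15 largest rises and falls with a functional annotation and 3 of each without, in each keyword list the 2 most abundant and the largest and smallest change, the 8 most abundant of each group, and 5 of each sign that differed most from 12 h. The members and lists were chosen with earlier results of these data known. Alternatives changed scaling, pseudocount, filter, libraries, weights and the replicate block. The authors' own comparisons were not used.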

Additional observations from a re-analysis of the deposited data

Results flagged for a closer look

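The genes below had a VLC/HC change at 24 h that differed from the change at 12 h by the interaction test in limma, with each library centred on its median gene. Differences are log2 values, 24 h minus 12 h. The largest positive one was that of the tyrosinase family gene g5946, 4.27 (standard error 0.24, adjusted p = 8.5e-09), which had 4.37 and 4.09 FPKM in VLC, against 0.43 and 0.84 in HC at 12 h.

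Some genes were lower in VLC at 12 h and higher at 24 h. For HIRA/HIR1 (g1787) the difference was 3.61, with 16.5 and 16.2 FPKM in VLC, against 73.0 and 74.9 in HC at 12 h. At 24 h it had 84.5 and 78.5 FPKM in VLC, against 38.5 and 39.3 in HC. Its own change at 24 h, 1.05, was not called in centred libraries (0.86). The beta-lactamase g2322 differed by 3.55 and the cytochrome P450 gene g8290 by 3.46. For the U-box gene g7445 the difference was 3.39, and its change at 24 h was 0.98 in centred libraries.

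Among negative differences, the protein-tyrosine phosphatase g6079 had -4.08 (standard error 0.54, adjusted p = 2.7e-05) and the triosephosphate/phosphate translocator g6303 -3.04. Both were above HC at 12 h, g6303 with 11.9 and 8.91 FPKM in VLC, against 3.48 and 3.85 in HC. The adenosine kinase-like genes g7175 and g7188, whose values leave out any reads that fit both, had -2.81 and -2.62, and both were nearly level at 12 h. The Na+/K+ P-type ATPase g6199 had -1.98.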

How the results depend on the processing

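Among the 205 single gene results no call was reversed under the alternatives. The medians of all genes tested and of 5 lists (pigments, Calvin cycle, sulfate assimilation, transcription factors and oxidant defence) fell to 0 or below in centred libraries. Of 2459 values for 205 single gene results, 2429 kept their call, 16 lost it and 14 gained it. Of 600 counts over lists 570 stayed within 1.5 times. Centring on the median gene gave 682 genes higher and 749 lower at 24 h, 999 larger and 641 smaller against 12 h, and 580 larger and 689 smaller against 6 h, which turned the balance round each time. Quantile normalization gave 899 larger and 741 smaller against 12 h. Leaving out 1 library at a time gave 905 to 936 genes higher and 484 to 503 lower at 24 h, 546 to 589 larger and 2230 to 2354 smaller against 12 h, and 769 to 819 larger and 427 to 448 smaller against 6 h. Differences between replicates 1 and 2 correlated from -0.269 to 0.211 between groups, which cannot tell whether a replicate number marks the same culture at several times. With a replicate block in the model 922 genes were higher and 489 lower. The block gave 559 larger and 2302 smaller against 12 h and 801 and 433 against 6 h. With 2 libraries per group and no counts in the tables, low genes are the least certain.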
